A study of Homo sapiens with 30 samples.

Results

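MYC peaks from 2 DMSO-treated ChIP-seq libraries of a rhabdoid tumour line were merged into 4437 regions, and 1873 of these form the set described here. Each of the 1873 regions held a peak of a single DMSO library, overlapped no peak of the 3 libraries treated with the degrader dTAG47, and had its midpoint within 1000 bases of an annotated transcription start site. Of them 1670 came from the list of the first DMSO library and 203 from the list of the other one, which the labels number 3. Within the same distance of start sites, mostly those of other genes, lay 583 regions with a peak in both DMSO lists and none after dTAG47, and 285 regions with a dTAG47 peak. The members were chosen by the peak calls of these 5 lists and by distance, so peaks and peak scores are given below as a description only, with no test.

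The study used G401, an established cell line from a rhabdoid tumour of the kidney. DTMYC cells lack their own MYC, deleted with CRISPR, and live on a lentiviral MYC whose N-terminus carries an HA tag and the FKBP12F36V degradation domain. DTMYC cells received 500 nM dTAG47 or the solvent DMSO and were taken at 4 h for ChIP-seq and PRO-seq and at 24 h for ATAC-seq and RNA-seq, and parental G401 cells without the fusion had RNA-seq only, with the same 2 treatments at 24 h. The labels name an antibody to MYC, while the names of the peak lists refer to HA.

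MYC is a transcription factor that binds DNA as a dimer with MAX, and its preferred site is the E-box CACGTG. In proliferating cells it is found at a large share of active promoters, over a wide range of occupancy, and its best known targets make ribosomes, nucleotides and mitochondrial proteins. FKBP12F36V binds dTAG compounds, which bring the fused protein to an E3 ubiquitin ligase so that the proteasome destroys it.

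The 8 highest-scoring regions with an E-box within 100 bases of the midpoint show what such a site looks like, and their sequences are printed here because the gene responses below are compared by this motif. Each was read from the hg19 reference on the plus strand, around the CACGTG nearest to the midpoint of the region, with the motif in capitals. The positions are chr17:5372263-5372292 for DHX33, chr5:140998845-140998904 for DIAPH1, chr17:5342400-5342429 for C1QBP, chr17:40985360-40985389 for PSME3, chr1:44445534-44445563 for B4GALT2, chr14:20923350-20923379 for APEX1 and OSGEP, chr9:37592186-37592245 for TOMM5, and chr10:88855236-88855295 for FAM35A and GLUD1.
DHX33: cttcctcgccgcCACGTGctggcggctccc
DIAPH1: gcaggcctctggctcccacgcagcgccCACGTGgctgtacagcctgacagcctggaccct
C1QBP: aacgactgcgaaCACGTGcagatgcaaagg
PSME3: ggctgcgcagcgCACGTGcacagcctcgca
B4GALT2: gtccgcgggtgcCACGTGttcagcctgcca
APEX1 and OSGEP: aggtccgctaccCACGTGggggctcagcgt
TOMM5: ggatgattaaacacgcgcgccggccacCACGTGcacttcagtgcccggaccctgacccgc
FAM35A and GLUD1: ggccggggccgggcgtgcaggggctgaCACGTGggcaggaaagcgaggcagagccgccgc
All 8 peaks were in the first DMSO list, with the authors' scores running from 447 at DHX33 and 339 at DIAPH1 down to 250 at FAM35A and GLUD1. The score is on the scale of 10 times the −log10 of the peak's q value. Location was read at the midpoint of each region, not at the motif. The midpoint lies in an untranslated exon at DHX33, PSME3 and APEX1 and in a coding exon at C1QBP and TOMM5. It lies in an intron at B4GALT2 and FAM35A, and outside protein-coding genes, upstream of the start site, at DIAPH1. The PSME3 midpoint was also upstream (−80 bases) of the start site used here. The DIAPH1 region held 2 copies of the motif near its midpoint and the APEX1 region 3.

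Most of the peaks were weak. The median score of the 1873 regions was 50, with the middle 50% between 34 and 76, against 99 for the 583 regions of both DMSO lists and 225 for the 285 regions with a dTAG47 peak. The first list gave members with a median of 53 and the other list members with a median of 38. Scores began at 13, the lowest in the DMSO lists, and 87 members were under 20. The regions were also narrower, with a median width of 483 bases against 729 and 858 bases.

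How often a promoter peak of the first list was also in the other list moved with its score. Of promoter peaks scored from 13 to 30, 10.8% were in both lists, and of those from 30 to 60, 14.3%. The share was 27.7% from 60 to 100, 53% from 100 to 200, and 84.9% at 200 or more. Of the members of the first list 253 scored under 30, 720 from 30 to 60, 457 from 60 to 100, 211 from 100 to 200, and 29 scored 200 or more. The 2 lists differ in size, with 4010 and 1519 peaks, and their depth is unknown.

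The highest scores among the members lay on short non-coding RNA genes rather than on the start sites of the protein-coding genes they were assigned to. A region scored 34256 (chr6:52860425-52860843), assigned to GSTA4, covered 97.9% of RN7SK, whose product holds the elongation factor P-TEFb inactive. The region scored 12374 (chr9:35657554-35658041), assigned to CCDC107, covered 100% of RMRP, the RNA of RNase MRP. The region scored 30040 (chr14:20811232-20811566), assigned to PARP2, lay within the non-coding gene ENSG00000259001 and covered 52.5% of it. After these 3 the scores dropped to 745 at FTL, 462 at LOC644100 and 447 at DHX33. These 3 peaks were therefore not weak ones.

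Members lay close to start sites and mostly downstream of them. The median signed distance of the midpoint, with upstream counted as negative, was 123 bases downstream. On either side 53.7% were within 250 bases, and 33.1% were upstream. By annotation, 30.1% of midpoints were in untranslated exons, 27.3% in introns, 14.8% in coding exons, 3.84% in other exons and 24.0% outside protein-coding genes. At 309 regions, or 16.5%, the start sites of 2 genes shared the region. The members just inside the distance limit were at PTGR2 (1000 bases), ADAM10 (998) and EP400NL (996), with scores of 59, 38 and 31, and just outside it were AK3 (1011 bases), MCL1 (1018) and FLJ39639 (1023), with scores of 78, 55 and 159.

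The E-box was more frequent in these regions than in the sequence around them. CACGTG, which reads the same on both strands, stood within 100 bases of the midpoint in 311 of 1873 regions, 16.6% with an exact 95% binomial interval of 15.0 to 18.4% that covers counting error only. In windows of the same length 10000 bases to either side the share was 1.76% (1.37 to 2.24%, 3746 windows). The share was 16.8% for members of the first list and 14.8% for those of the other. It was 23.3% in regions of both DMSO lists, 26.3% in regions with a dTAG47 peak, and 16.1% in the single-library regions far from start sites.

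These windows differ in base composition, which moves with the motif. Median GC content was 68.2% in the members and 44.3% in the flanks, with a median of 19 against 2 CpG dinucleotides, and the part of composition in the difference was not tested. The variant CACGCG, itself rich in CpG, was in 21.3% of members and 1.18% of flanks, whereas CATGTG was in 6.57% of members and 10.4% of flanks. Centred on start sites rather than on peaks, CACGTG was in 10.2% of windows of member genes, 4.86% of unbound genes, 5.52% of unbound genes with open chromatin and 5.91% of all genes. Unbound genes here are those with no MYC peak of any of the 5 lists within the distance limit.

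Within the members the motif was densest near the midpoint of the peak, as the plot of motif position shows. Counts reached 24.6 per 1000 regions in the 20-base bins from 0 to 19 and from 20 to 39 bases, and were 9.08 per 1000 from 120 to 139 bases. The flanks had 0.534 to 3.74 per 1000 in each bin.

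**Figure D1:**
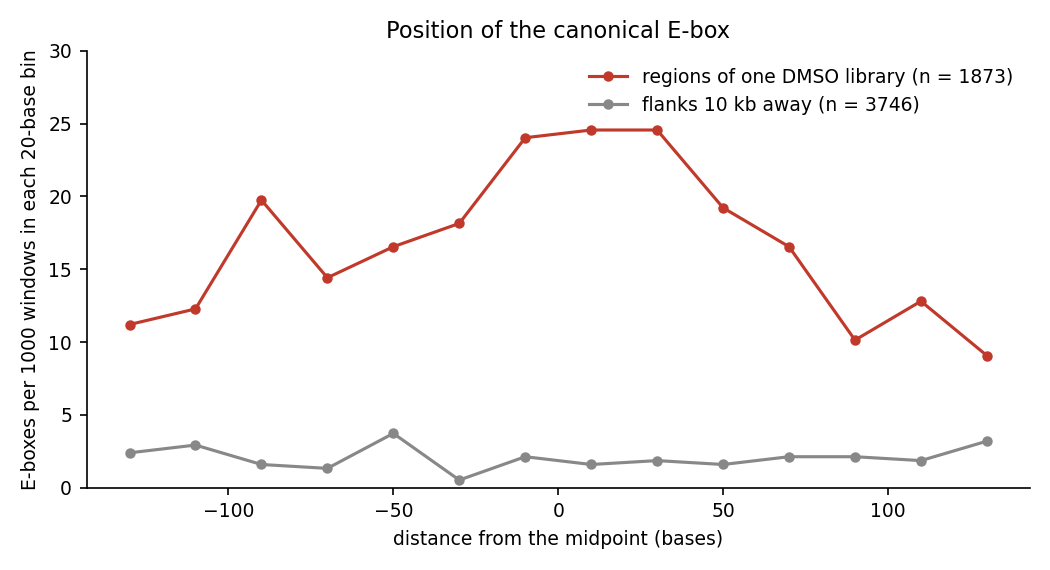
Number of CACGTG motifs per 1000 windows (y axis) in bins of 20 bases against the distance from the midpoint in bases (x axis), for the 1873 regions with a peak in a single DMSO library and for 3746 windows 10 kb away. The regions peak at 24.6 per 1000 just beside the midpoint, and the flanks stay at or below 3.74.

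Chromatin was open at nearly all members, with and without dTAG47. The share of the 1873 regions that overlapped an ATAC-seq peak was 95.9%, 94.6% and 90.2% in the 3 DMSO libraries and 94.2%, 91.4% and 94.3% in the 3 dTAG47 libraries. The means of 93.5% ± 2.99 (SD, n = 3) and 93.3% ± 1.68 (SD, n = 3) differed by less than the spread between libraries. A peak was present in all 6 lists at 1605 regions (85.7%) and in none at 35. In 2 regions all DMSO lists and no dTAG47 list had a peak, and in 0 regions the reverse was found.

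The other bound promoters were open to a like degree, with means in DMSO of 96.6% for regions of both DMSO lists and 98.4% for regions with a dTAG47 peak. Single-library regions far from start sites were open in 49.4%. Around the start sites themselves 95.3% of member genes and 46.3% of unbound genes had an open window in DMSO. The ATAC-seq lists held between 28429 and 50983 peaks, so these shares also depend on how many peaks were called.

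Across the start sites of the 20367 genes in the PRO-seq table, 2099 had only member regions, 660 had a region of both DMSO lists, 345 a region with a dTAG47 peak, and 17227 were unbound. The RNA-seq table was matched to 1935 of the 2099, and 1905 had enough counts to be tested. RNA-seq libraries held 27854207 to 54633745 counted reads and PRO-seq libraries 18209879 to 23256313 reads in gene bodies. The labels do not say whether replicates were separate cultures, so the p-values cover no more than the spread among libraries, which may be technical. MYC RNA was 1329, 1353 and 1418 CPM (counts scaled to the size of each library) in DTMYC cells with DMSO and 1478, 1404 and 1349 CPM with dTAG47, which measures the transcript and says nothing of the protein. SMARCB1, the gene lost in rhabdoid tumours, had 0 and 2 gene body reads with DMSO and 0 and 0 with dTAG47. One RNA-seq library stood apart: the third parental DMSO library differed from the other 2 by a chi-square per degree of freedom of 142 and 131, against 38.8 between those 2 and 2.52 to 13.02 within the DTMYC groups. All 12 libraries shared one estimate of spread, so the counts below are also given without this library.

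Genes with a single-library region were active genes. With DMSO their median PRO-seq gene body density was 2.45 CPM per kb, with the middle 50% between 1.40 and 4.16, against 0.11 for all unbound genes and 1.08 for unbound genes that passed the count filter. Their median RNA level in DTMYC cells was 12.5 CPM per kb, and the 3 DMSO libraries gave 12.3, 12.9 and 12.3. Unbound genes had 1.22, or 4.14 among those that passed the filter. On both scales members lay below the genes with a region of both DMSO lists (3.29 and 16.3) and below those with a dTAG47 peak (4.55 and 30.7).

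After 24 h of dTAG47, the RNA of these genes moved down by a small amount in all 3 libraries. The median log2 change was −0.046 over the 1905 members and 0.071 over 9779 unbound genes. Taken library by library against the DMSO mean, the member median minus the unbound median was −0.12, −0.12 and −0.10 (mean −0.11 ± 0.011, SD, n = 3), and in the DMSO libraries it lay between −0.016 and 0.019. The dTAG47 and DMSO libraries did not overlap. The same difference was −0.21 ± 0.013 for genes of both DMSO lists and −0.24 ± 0.020 for genes with a dTAG47 peak (SD, n = 3). In bulk libraries, fewer cells and less RNA per cell cannot be told apart, and CPM shows shares of a library and no absolute amount.

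**Figure D2:**
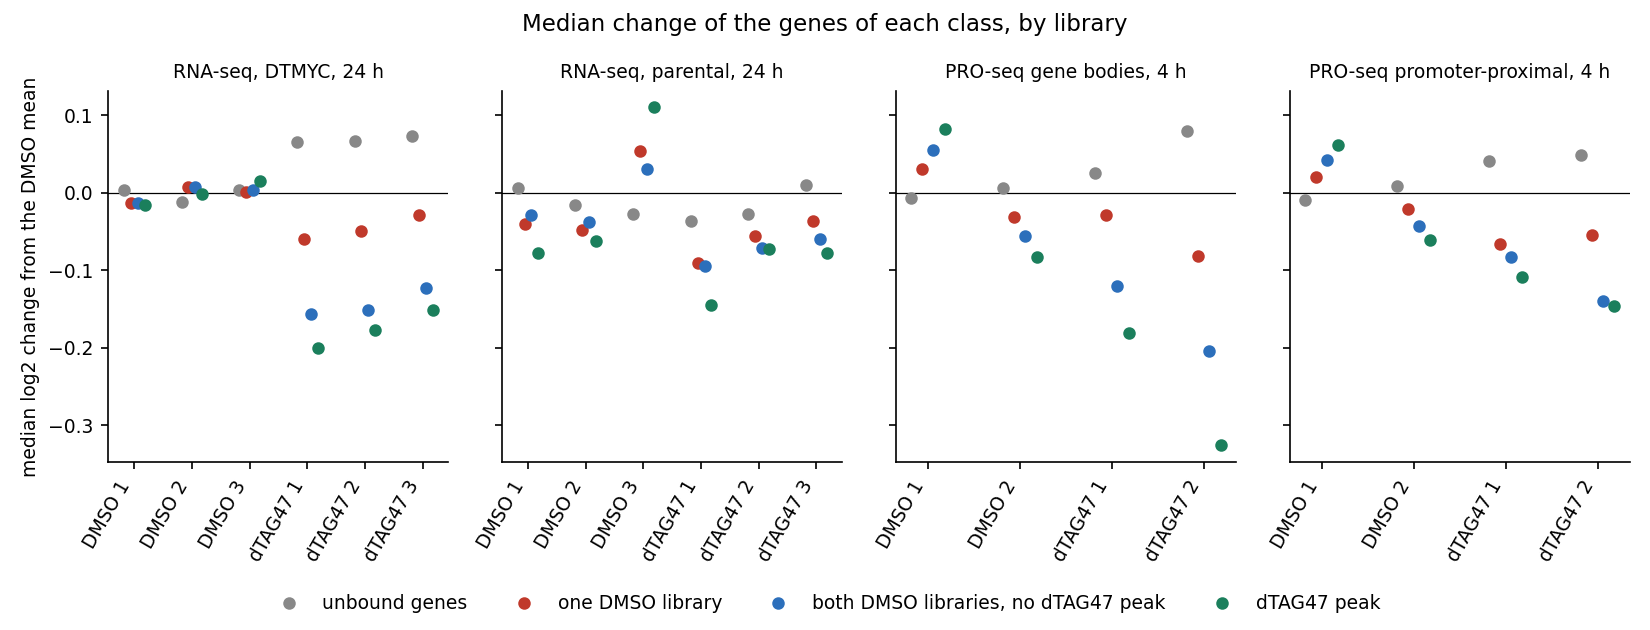
Median log2 change from the DMSO mean (y axis) of unbound genes, genes with a region of a single DMSO library, genes with a region of both DMSO lists and genes with a dTAG47 peak, with 1 point per library (x axis) in RNA-seq of DTMYC cells, RNA-seq of parental cells, PRO-seq gene bodies and PRO-seq promoter-proximal counts. In RNA-seq of DTMYC cells the single-library genes lie between the unbound genes and the other bound genes in each dTAG47 library.

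By edgeR's quasi-likelihood test with Benjamini-Hochberg adjustment over all 13401 genes, 169 of the 1905 members (8.87%) fell and 17 (0.892%) rose. Over all genes tested, 4.44% fell and 4.27% rose, and among unbound genes 2.65% fell and 5.52% rose. In genes of both DMSO lists 106 of 604 (17.6%) fell, and with a dTAG47 peak 43 of 308 (14.0%). Every dTAG47 library was below every DMSO library for 34.0% of members (20 percent of all genes) and above for 17.0% (25.2 percent of all genes). Without the third parental DMSO library 581 members (30.5%) fell and 115 (6.03%) rose, beside 16.6% and 12.7% of all genes. Leaving out 1 DTMYC library gave 40 to 106 falls, 40 being without the third DTMYC DMSO library and also without the second DTMYC dTAG47 library, and 3 to 6 rises.

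**Figure D3:**
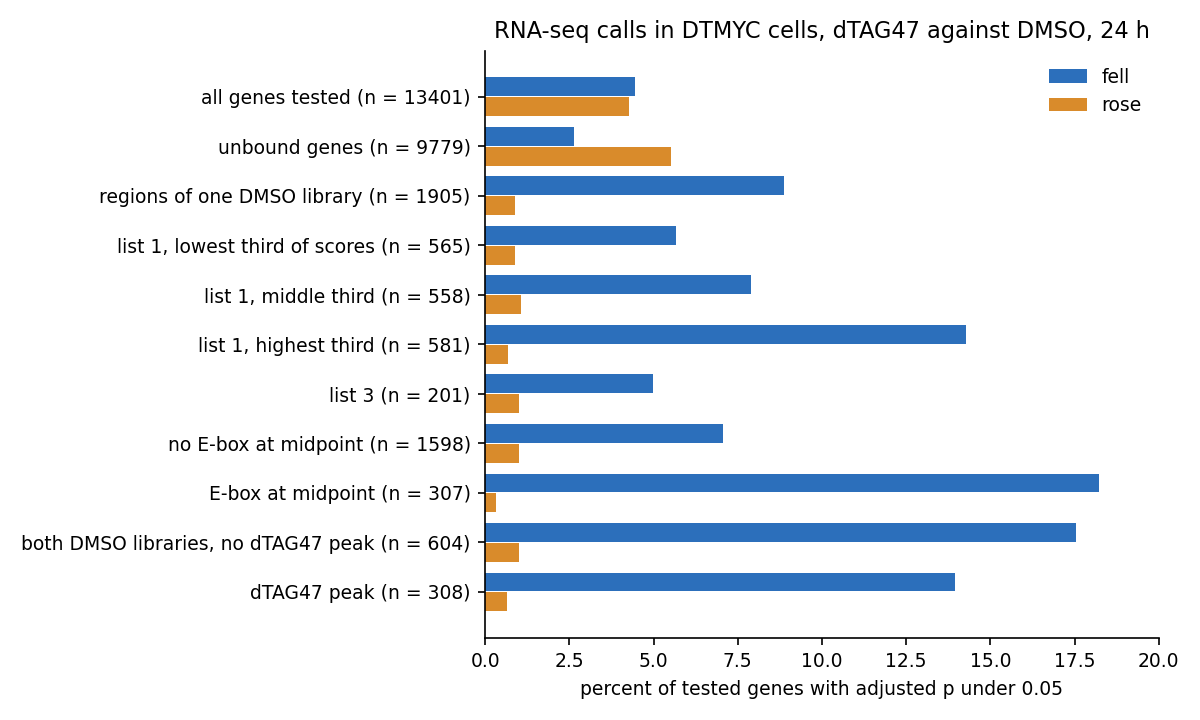
Percent of tested genes (x axis, from 0) that fell or rose in RNA-seq of DTMYC cells after dTAG47, with 1 pair of bars per class of genes or subset of the single-library genes (y axis). Falls reach 8.87% in the single-library genes against 4.44% of all genes, and are higher with higher scores and with an E-box near the midpoint.

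Because members were more highly expressed, they were also compared with unbound genes of like level, in 3 equal bins of RNA level with limits at 2.14 and 11.1 CPM per kb. In the highest bin 11.9% of 1027 members and 3.79% of unbound genes fell, with median log2 changes of −0.082 and 0.012. The medians were −0.014 and 0.073 in the middle bin, and 0.049 and 0.16 in the lowest, which held 161 members. Members were thus below unbound genes in each bin, and above 0 in the lowest. Among genes whose start site was open in all 3 DMSO ATAC-seq lists, 8.51% of members and 2.22% of unbound genes fell.

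The largest falls among members with at least 5 CPM and no overlap of the groups included membrane transporters and signalling genes. DDN, which encodes the neuronal and podocyte protein dendrin, had 17.7, 16.8 and 18.4 CPM with DMSO and 7.07, 7.20 and 6.95 CPM with dTAG47 (17.6 ± 0.773 against 7.08 ± 0.123, SD, n = 3). Its groups were far apart, with a log2 change of −1.32 (SE 0.096, adjusted p = 9.5e-05 by edgeR). The DDN region (chr12:49392387-49392719, score 33) lies in an intron 535 bases downstream of the start site and holds an E-box, and the strand of counting is not given in the sources used here, so reads of DDN and of the antisense gene DDN-AS1 cannot be told apart.

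FABP5, a fatty acid carrier, had 19.3, 16.5 and 16.8 CPM with DMSO and 8.87, 9.64 and 9.12 CPM with dTAG47. The groups did not overlap, and the log2 change was −0.93 (SE 0.094, adjusted p = 0.00040 by edgeR). FABP5 has near-identical pseudogene copies, so its counts are uncertain. RAC3, a small GTPase, fell from 135, 125 and 142 CPM to 77.4, 76.0 and 72.4 CPM (log2 change −0.83, SE 0.098, adjusted p = 0.0011). In parental cells RAC3 read 125.5, 123 and 96.2 CPM with DMSO and 93.3, 95.0 and 89.8 CPM with dTAG47. That log2 change was −0.31 (adjusted p = 0.18 by edgeR), and the difference of the 2 responses missed the threshold (adjusted p = 0.078). The RAC3 region (chr17:79990017-79990462) had the highest score of these falls, 121, and holds an E-box.

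Among transporters, SLC19A1, which imports reduced folate, fell from 101, 93.7 and 102 CPM to 65.0, 60.8 and 59.1 CPM (log2 change −0.68, SE 0.090, adjusted p = 0.0016). SLC16A10, which carries aromatic amino acids, fell by 0.88 on the log2 scale (adjusted p = 0.0023). In neither did the DMSO and dTAG47 libraries overlap. ADCK3, a coenzyme Q synthesis gene, fell by 0.76, VWCE by 0.75 and WNT10B, a Wnt ligand, by 0.68 on the log2 scale, with adjusted p of 0.0011, 0.0041 and 0.0035. Also among the 10 largest falls was HES6, a helix-loop-helix regulator, at −0.77 (adjusted p = 0.011). The HES6 call was lost without DTMYC DMSO library 1 or 3 (both adjusted p = 0.053) or DTMYC dTAG47 library 2 (0.060), and its parental log2 change was −0.56 (adjusted p = 0.14).

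All 10 midpoints of these genes' regions were downstream of the start site, where 33.1% of all members were upstream. An E-box was in 4 of the 10, against 16.6% of all members, and 4 were open in all 6 ATAC-seq lists, against 85.7%. As among all members, most (9) came from the first list. Their scores ran from 23 at WNT10B to 121 at RAC3.

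**Figure D4:**
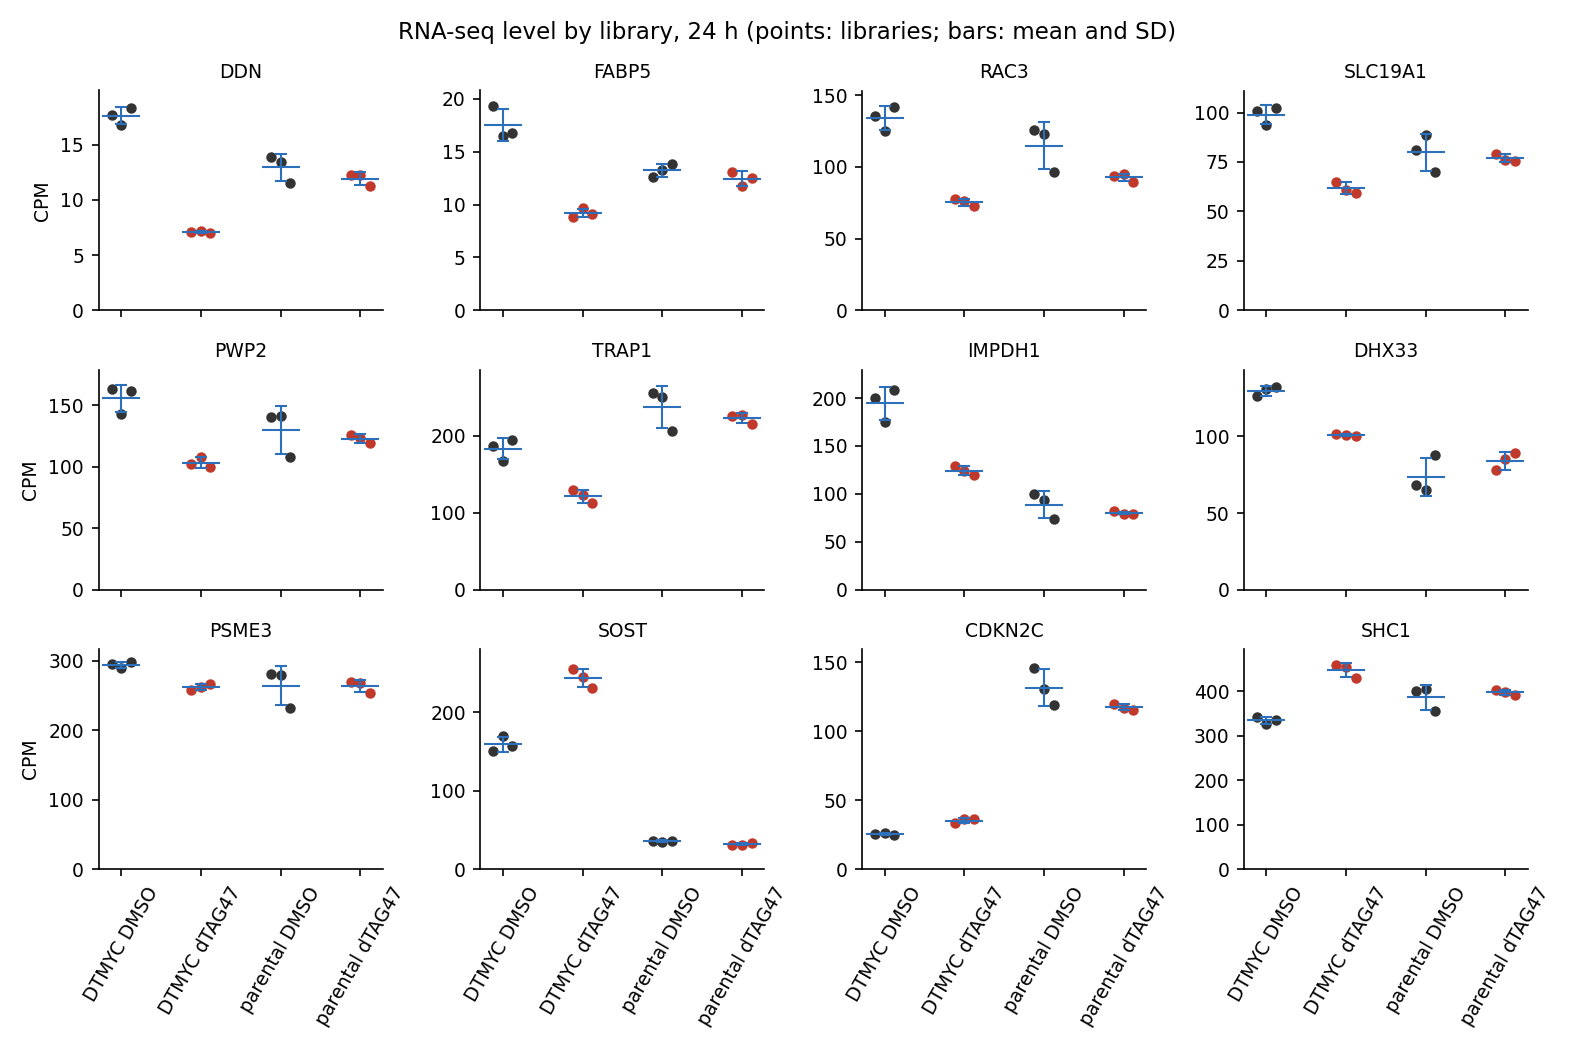
RNA level in CPM (y axis, from 0, 1 panel per gene) of 12 named genes in each RNA-seq library (points) of DTMYC and parental cells with DMSO or dTAG47. DDN goes from 17.6 to 7.08 CPM on average in DTMYC cells, SOST from about 151 to 169 up to 231 to 255 CPM, and the parental libraries of both genes differ less.

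Rises were fewer and smaller. SOST, which encodes the Wnt inhibitor sclerostin, had 151, 169 and 157 CPM with DMSO and 255, 244 and 231 CPM with dTAG47 (log2 change 0.61, SE 0.071, adjusted p = 0.0011 by edgeR). The parental cells held 35.6, 34.3 and 36.3 CPM with DMSO and 30.9, 30.7 and 32.7 CPM with dTAG47. SOST was thus several times higher in DTMYC cells before any treatment, and its dTAG47 libraries were higher than DMSO in one line and lower in the other.

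CDKN2C, an inhibitor of the cell cycle kinases CDK4 and CDK6, had 25.7, 25.9 and 24.8 CPM with DMSO and 33.2, 36.0 and 36.2 CPM with dTAG47 (log2 change 0.47, SE 0.084, adjusted p = 0.0067). The signalling adaptor SHC1 rose from 341, 325 and 335 CPM to 459, 454 and 430 CPM (log2 change 0.42, SE 0.067, adjusted p = 0.0038). RAPGEF3, which encodes the cAMP sensor EPAC1, had a log2 change of 0.45 (adjusted p = 0.012), but the call was lost without the third DTMYC DMSO (0.050), the first dTAG47 (0.056) or the second dTAG47 library (0.068). The other 6 of the 10 largest rises, WDR31, ERMP1, VSTM2L, UBE3B, DHRS12 and FKBP9, lay between 0.33 and 0.43 on the log2 scale, and each lost its call in 5 to 10 of the 12 refits without 1 library. One of the 10 regions held an E-box, and their scores ran from 15 to 72.

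The response of members moved with the peak score and with the E-box. Among members of the first list, 5.66% of 565 genes in the lowest score bin (13 to 41) fell, 7.89% of 558 in the middle bin (41 to 68) and 14.3% of 581 in the highest bin (68 and above), with median log2 changes of −0.0023, −0.043 and −0.11. Across the 1704 tested genes of this list Spearman's rank correlation of score and log2 change was −0.20 and Pearson's r was 0.018; the genes are not independent replicates and share their libraries. Of members from the other list 10 of 201 (4.98%) fell. Over all genes tested 4.44% fell, so this share and that of the lowest score bin were close to it. The rule for members took the peak calls, with no cut on their score, and took no RNA values.

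With an E-box within 100 bases of the midpoint, 56 of 307 genes (18.2%) fell, with a median log2 change of −0.11. Without it, 113 of 1598 (7.07%) fell, with a median of −0.034, beside 4.44% falls over all genes. Without the third parental DMSO library these shares were 39.9% and 28.7%, and the score bins gave 22.5%, 30.7% and 39.4%. Over all genes 16.6% fell without that library. The fall was also more frequent where the midpoint was over 250 bases from the start site (11% against 7.30%) and where the region was missing from at least 1 ATAC-seq list (14.1% against 8.14%). When the third parental DMSO library was left out, these shares were 32.5% against 29.0% and 36.3% against 29.7%, and by distance the medians with all libraries were close, at −0.050 and −0.043. No test of these differences was made, since members were chosen with earlier results known.

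First-list regions with a score of 200 or more had 31 tested genes. Of these, 6 (19.4%) fell and 0 rose, beside 4.44% and 4.27% of all genes. The median log2 change of the 31 was −0.16. Those that fell include C1QBP, a mitochondrial matrix protein, at −0.48 (score 317, adjusted p = 0.011), and B4GALT2, a galactosyltransferase, at −0.49 (score 282, adjusted p = 0.0098), both named after their values were seen. Both calls were lost without DTMYC DMSO library 3 or DTMYC dTAG47 library 2, and that of B4GALT2 also without DTMYC DMSO library 1 (adjusted p up to 0.056 for C1QBP and 0.054 for B4GALT2). Other genes with high scores moved less. At DHX33, a helicase needed for ribosomal RNA synthesis, RNA went from 126, 131 and 132 CPM to 102, 101 and 100.3 CPM (log2 change −0.36, SE 0.10, adjusted p = 0.049), and the call was lost in 9 of 12 refits without 1 library (adjusted p up to 0.15, without the third DTMYC DMSO library). DIAPH1, a formin that builds actin filaments, read 285, 279 and 297 CPM with DMSO and 287, 290 and 284 CPM with dTAG47, and these groups overlapped. PSME3, a proteasome activator, had 295, 290 and 298 CPM against 257, 262 and 267 CPM, which did not overlap, yet the log2 change of −0.17 missed the threshold (adjusted p = 0.22). The genes assigned to the 3 regions over non-coding RNA genes, GSTA4, PARP2 and CCDC107, had log2 changes of 0.11, −0.016 and 0.23, none past the test. Of the 8 highest regions of the other list, led by ARHGAP39 (132), HOXA9 (109) and DIEXF (102), no assigned gene passed the test.

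Members were counted in 22 gene lists, beside the unbound genes of each list. Members made up 10.3% of all genes and 15.3% of those with enough PRO-seq reads. Of 83 ribosome biogenesis genes with a start site in the table, 31 were members, and 12 of the 30 tested fell, 0 rose, with a median log2 change of −0.30 against −0.046 over all members, beside 4.44% falls over all genes. Unbound genes of this list fell about as often, 7 of 17 with a median of −0.31, and its other bound genes fell in 20 of 35 cases with a median of −0.40. PWP2, a part of the small subunit processome, went from 163, 143 and 161 CPM to 102, 108 and 99.5 CPM (log2 change −0.59, SE 0.10, adjusted p = 0.0055). The region at PWP2 scored 174 and carried an E-box, and that of the rRNA helicase gene DHX37 scored 198 and carried one too. DHX37 fell by 0.43 on the log2 scale and TCOF1, which encodes the nucleolar protein treacle, by 0.47 (both adjusted p = 0.0064).

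Among RNA polymerase I and III genes, 11 of 35 were members, and 5 of 11 fell, with a median of −0.28. Of the unbound genes of this list 0 of 11 fell, with a median of −0.094. CD3EAP, a polymerase I subunit, had 24.0, 26.7 and 22.2 CPM with DMSO and 16.0, 15.9 and 14.5 CPM with dTAG47 (log2 change −0.65, SE 0.11, adjusted p = 0.0058). POLR1C, a subunit of both polymerases, fell by 0.42 on the log2 scale, but this call was lost in 5 of 12 refits without 1 library, all of them DTMYC libraries (adjusted p up to 0.098, without the third DTMYC DMSO library). Of the list of canonical MYC targets 11 of 52 were members, and 7 of 10 fell, with a median of −0.44. Of the unbound genes of this list 8 of 12 fell, with a median of −0.38, and of its other bound genes 15 of 28. One of the fallen members is SORD, sorbitol dehydrogenase, which fell from 148, 145 and 150.1 CPM to 102, 101 and 97.0 CPM (log2 change −0.56, SE 0.070, adjusted p = 0.0013).

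Cytosolic ribosomal protein genes were mostly in the other bound classes. Of 75, 6 (8%) were members, beside 10.3% of all genes, while 16 had a region of both DMSO lists and 44 a region with a dTAG47 peak. None of the 6 passed the test, with a median of −0.25. Nor did any of the 59 other bound genes tested (median −0.17) or the 6 unbound ones tested (−0.15). Without the third parental DMSO library 5 of the 6 fell. Ribosomal protein genes have many near-identical copies, so their counts are uncertain.

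Genes of mitochondrial proteins and of nucleotide synthesis also had members. Of mitochondrial ribosomal protein genes 20 of 72 were members, and 7 of 19 fell, among them MRPL36, from 40.3, 36.98 and 45.0 CPM to 28.3, 27.01 and 29.6 CPM (log2 change −0.53, SE 0.087, adjusted p = 0.0048). Of the unbound genes of this list 1 of 40 fell, with a median of −0.17 against −0.19 for members. Of mitochondrial import and chaperone genes 13 of 34 were members, and 3 of 12 fell, as did 2 of 7 unbound ones. The strongest was TRAP1, the mitochondrial HSP90, from 186, 168 and 195 CPM to 129, 123 and 112 CPM (log2 change −0.59, SE 0.093, adjusted p = 0.0037). In purine and pyrimidine synthesis 7 of 27 were members and 4 of 7 fell, with a median of −0.36, while 2 of 12 unbound genes of the list fell, with a median of −0.023. IMPDH1, which commits IMP to GTP synthesis, had 200.1, 175 and 208 CPM with DMSO and 129, 124 and 119.5 CPM with dTAG47 (log2 change −0.65, SE 0.11, adjusted p = 0.0046).

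In other lists few members or none passed the test, where 4.44% of all genes fell and 4.27% rose. Of the proteasome genes 13 of 34 were members, and 0 of 13 fell, with a median of 0.046. None of the members tested fell in DNA replication (11 tested, median −0.078), translation factors (10, −0.13), oxidative phosphorylation (10, −0.16), lysosome and autophagy (4), SWI/SNF subunits (2) or the MYC and MAX network (2). In mitosis 1 of 15 fell, in aminoacyl-tRNA synthetases 1 of 9, in splicing 2 of 16, in cholesterol synthesis 2 of 7 and in p53 targets 2 of 6. Unbound genes of these lists fell in 0 of 29, 1 of 16, 1 of 16, 2 of 13 and 1 of 18 cases, in the same order. Some lists where no member fell had falls among unbound genes. These were DNA replication (3 of 30), translation factors (1 of 15) and the MYC and MAX network (3 of 14). Of their other bound genes 2 of 6, 5 of 19 and 2 of 5 fell. No unbound or other bound gene fell in the proteasome, oxidative phosphorylation, lysosome and autophagy or SWI/SNF lists. In no list did a member rise, where 0.892% of all members rose.

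Without the third parental DMSO library, where 16.6% of all genes and 30.5% of members fell, the falls were 26 of 30 in ribosome biogenesis, 9 of 11 in polymerase I and III, 13 of 19 in mitochondrial ribosomal proteins, 8 of 12 in mitochondrial import, 6 of 7 in nucleotide synthesis and 9 of 10 in canonical targets. They were 5 of 10 in translation factors, 6 of 10 in oxidative phosphorylation, 8 of 16 in splicing and 3 of 11 in DNA replication. The proteasome list had 1 of 13.

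Of the kidney epithelial markers KRT8 and KRT18 were members and shared 1 region (score 37). KRT8, an epithelial keratin, had 4155, 3884 and 4293 CPM with DMSO and 4944, 4765 and 4415 CPM with dTAG47 (log2 change 0.20, adjusted p = 0.15), and both keratin genes have many processed copies. No haematopoietic marker (0 of 9) and no neuronal marker (0 of 10) was a member.

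In parental cells, which have no degradable MYC, few members passed the test. With all libraries 0 members fell and 3 rose by edgeR, beside 0.0224% and 0.104% of all genes, while 231 and 103 had an unadjusted p under 0.05. DESeq2 called 31 and 23, beside 1.02% and 1.22% of all genes. The median log2 change was −0.084 for members and −0.036 for unbound genes. These values turn on the library that stood apart: without the third parental DMSO library 268 members (14.1%) fell and 185 (9.71%) rose, beside 10.9% and 9.17% of all genes, and the member median was 0.019 below the unbound median on the log2 scale.

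Library by library, members minus unbound genes read −0.055, −0.028 and −0.046 in parental dTAG47 libraries (mean −0.043 ± 0.014, SD, n = 3). The parental DMSO libraries read −0.046, −0.032 and 0.082, so the groups overlapped, and the last of these values is that of the library that stood apart. In the DTMYC comparison the 2 groups of libraries did not overlap.

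The genes that fell in DTMYC cells were also read in parental cells. They were picked by their DTMYC change, so a smaller parental median is no result of its own. The 169 fallen members had a median log2 change of −0.40 in DTMYC cells, as their selection required, and −0.054 in parental cells. There 118 were below 0 and 0 passed the test. Over all members the parental median was −0.084, with 67.7% below 0, and 59.1% of all genes were below 0. Without the third parental DMSO library their parental median was −0.14, with 139 below 0, 54 called as falls and 2 as rises. In that fit 14.1% of all members and 10.9% of all genes fell, and 56.2% of all members were below 0. The 17 risen members had medians of 0.38 and 0.024.

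The difference of both responses was tested itself in one model. By edgeR 19 members were below 0 and 4 above, beside 0.59% and 0.597% of all genes. The median difference was 0.022 for members, 46.8% of which were below 0, and 0.11 for unbound genes. Without the third parental DMSO library the counts were 307 and 87, beside 9.58% and 8.3% of all genes, and the medians were −0.073 and 0.033. Leaving out any 1 of the DTMYC or parental dTAG47 libraries gave 1 to 3 below 0 and 0 or 1 above. Among named genes DDN, FABP5, SLC19A1, ADCK3, SORD and TCOF1 were below 0 and SOST, CDKN2C and KRT8 above. Of these, DDN kept its call in all 12 refits without 1 library and SOST in 11, and each of the others lost it in 8 to 10.

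PRO-seq maps engaged RNA polymerase, so its change 4 h after dTAG47 is closer to the loss of MYC than RNA at 24 h. The member median of gene body change was −0.051, against 0.051 for unbound genes, −0.16 for genes of both DMSO lists and −0.25 for genes with a dTAG47 peak. Members minus unbound genes read −0.055 and −0.16 in the dTAG47 libraries, and −0.038 and 0.038 in the DMSO libraries by construction of the mean. Near the promoter the values were −0.11 and −0.10, with 0.030 on either side of 0 for DMSO. Both dTAG47 libraries were below both DMSO libraries.

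The gene body calls by edgeR turned on whether same-numbered libraries were paired, and no label states a shared source. With a replicate term 600 of 2049 members (29.3%) fell and 221 (10.8%) rose, beside 15.9% and 16.6% of all genes. Without a replicate term, no single gene passed edgeR's adjusted test in gene bodies. In this fit 0 members fell and 0 rose of 2049, beside 0 percent of all genes in either direction, while DESeq2 called 16 falls and 0 rises, beside 0.463% and 0.0448% of all genes. At an unadjusted p under 0.05, 223 members were lower and 36 higher, beside 5.92% and 3.77% of all genes. In promoter-proximal counts 0 of 2006 passed, with 119 lower and 23 higher at an unadjusted p under 0.05, beside 3.76% and 2.71% of all genes, and DESeq2 called 1 lower and 0 higher, beside 0.00978% of all genes in each direction.

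TPCN1, TRAP1 and ADAT2 were among the genes with the smallest gene body p values. TPCN1, an ion channel gene of endosomes and lysosomes, had 148 and 153.5 CPM in its gene body with DMSO and 96.8 and 101 CPM with dTAG47 (log2 change −0.61, unadjusted p = 0.00035, adjusted p = 0.39 by edgeR). TRAP1 had 235 and 224 CPM against 158 and 149 CPM. In both genes the groups were apart. At DDN the gene body read 29.1 and 41.5 CPM with DMSO and 15.9 and 24.5 CPM with dTAG47, and at DHX33 73.4 and 62.9 CPM against 52.9 and 46.3 CPM.

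Change at 4 h and change at 24 h went together across genes. Over 1893 members with both values, Pearson's r of gene body and RNA log2 change was 0.68 and Spearman's rank correlation 0.75, and over 8806 unbound genes 0.45 and 0.56. Gene body and promoter-proximal changes, from the same libraries, had r of 0.44 over 1855 members. These are correlations across genes, which are not independent replicates. Of the 169 genes that fell in RNA, 168 had a negative gene body change (median −0.37), against 1177 of all 1893. Of the 17 that rose, 0 had one (median 0.14).

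**Figure D5:**
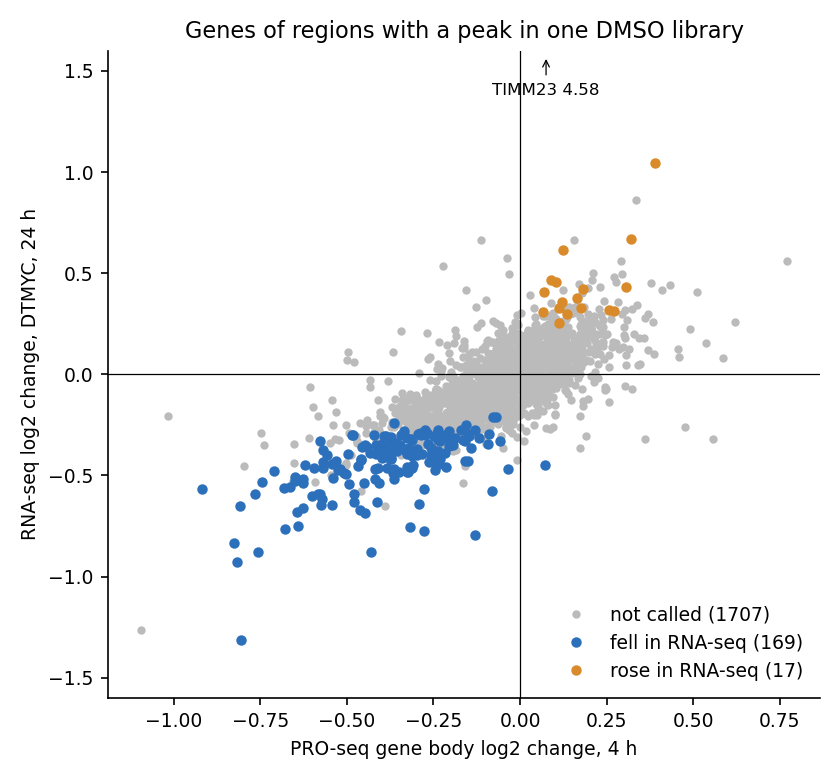
RNA-seq log2 change in DTMYC cells at 24 h (y axis) against PRO-seq gene body log2 change at 4 h (x axis), with 1 point for each of the 1893 single-library genes with both values, coloured by whether the gene fell, rose or was not called in RNA-seq. Of the 169 genes that fell, 168 lie left of 0, and the arrow marks TIMM23, an uncalled gene above the axis at 4.58.

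The gene body medians followed the same order as RNA across the subsets of members. They were −0.0088, −0.055 and −0.10 from the lowest to the highest score bin of the first list. With an E-box the median was −0.12 and without it −0.044.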

How the data were processed

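ChIP-seq, ATAC-seq, PRO-seq and RNA-seq of G401 cells were used. Per the submitters' processing notes the tools included STAR, featureCounts, Bowtie2, cutadapt, MACS2, DiffBind and DESeq2, on hg19, with no version or order given. The deposited peak lists were called per library, with a score per peak as given by the authors. The deposited RNA-seq and PRO-seq tables hold raw counts per gene, the latter for gene bodies and promoter-proximal windows, and the authors' gene body density, a signal equal to the gene body count divided by a length, from which that length was taken.

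Peaks were merged by any overlap, and a gene was assigned to each region with its midpoint within 1000 bases of a start site. Members and the 22 gene lists were chosen with earlier results of these data known. The count tables went through edgeR 4.0.16 under R 4.3.3 (filterByExpr, TMM, quasi-likelihood, Benjamini-Hochberg over all genes, threshold 0.05), and DESeq2 1.42.0 was an alternative. The RNA-seq fit held all 12 libraries and the PRO-seq fits all 4. The scripts were tested on simulated data. Medians over classes are descriptions. ATAC-seq openness was any overlap with a peak, and CACGTG was searched within 100 bases of the midpoint in GRCh37, with GENCODE v44lift37 for annotation.

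Named genes were the 10 largest rises and 10 largest falls past the threshold with at least 5 CPM and no overlap of the groups, the genes of the 8 highest scores of each list, up to 3 members per gene list, and those with the smallest gene body p. Some of these are not reported here. Fold changes are edgeR's on the log2 scale, with its default prior count. The SE was computed from the fold change and edgeR's F statistic. A prior count of 2 went into log2 CPM values only. CPM used TMM library sizes. Replicate numbers did not pair the RNA-seq libraries (correlations of deviations from −0.20 to 0.37). PRO-seq had 2 pairs, which share only a number. Alternatives were another normalization, no count filter, a replicate block, each line alone, each library left out, stricter overlaps and shorter distances, and those added after seeing the data are named in the closing section.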

Additional observations from a re-analysis of the deposited data

Results flagged for a closer look

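For 9 named genes the response to dTAG47 differed between DTMYC and parental cells by a test of the difference itself (edgeR's quasi-likelihood test over all 12 RNA-seq libraries, Benjamini-Hochberg over all genes). Of these, 6 were lower in DTMYC cells relative to parental cells. The log2 difference was −1.20 for DDN (SE 0.13, adjusted p = 0.0052), −0.84 for FABP5 (SE 0.13, adjusted p = 0.019), −0.63 for ADCK3 (SE 0.13, adjusted p = 0.041), −0.63 for SLC19A1 (SE 0.13, adjusted p = 0.040), −0.62 for TCOF1 (SE 0.12, adjusted p = 0.035) and −0.47 for SORD (SE 0.099, adjusted p = 0.043). The other 3 were higher, with 0.79 for SOST (SE 0.10, adjusted p = 0.0083), 0.63 for CDKN2C (SE 0.12, adjusted p = 0.035) and 0.54 for KRT8 (SE 0.11, adjusted p = 0.040). SOST was at 35.6, 34.3 and 36.3 CPM in parental DMSO libraries and at 151, 169 and 157 CPM in DTMYC DMSO libraries, while CDKN2C was at 146, 130.4 and 119 CPM and at 25.7, 25.9 and 24.8 CPM. In refits without 1 library, DDN kept this call in all 12 and SOST in 11. FABP5 lost it in 8, ADCK3, SLC19A1, CDKN2C, SORD and TCOF1 in 9 and KRT8 in 10 (adjusted p up to 0.14). With DESeq2's size factors in edgeR it was kept by DDN, FABP5 and SOST. KRT8 passed the test in neither line alone: its log2 change was 0.20 in DTMYC cells and −0.35 in parental cells.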

How the results depend on the processing

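Leaving out 1 library at a time gave 1873 to 1912 member regions (1873 with all). It gave 40 to 581 falls in RNA-seq of DTMYC cells (169 with all), 3 to 115 rises (17), and a member minus unbound median of −0.13 to −0.11 (−0.12). The highest counts were without the third parental DMSO library. In parental cells it gave 0 to 268 falls (0), 0 to 185 rises (3) and a median of −0.054 to −0.019 (−0.048), and without the second parental DMSO library 37 falls and 27 rises. For the difference of responses it gave 1 to 307 members below 0 (19) and 0 to 87 above (4). In PRO-seq gene bodies it gave 1 to 10 falls (0), 0 to 0 rises, and a median of −0.16 to −0.050 (−0.10); near promoters the median was −0.14 to −0.094 (−0.10). The difference of log2 PRO-seq levels was 2.22 to 2.45 (2.32). Openness was 92.4 to 95.2% with DMSO (93.5%) and 92.8 to 94.3% with dTAG47 (93.3%).

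With only the 6 libraries of a line, 646 fell and 171 rose in DTMYC cells, and 0 rose in parental cells. DESeq2 gave 28 rises in DTMYC cells, 31 falls and 23 rises in parental cells, 61 below and 17 above 0 for the difference, and 16 gene body falls. With no count filter there were 10 rises in DTMYC cells, 1 fall in parental cells, 12 below and 2 above 0 for the difference, 1 gene body fall and a promoter-proximal median of −0.13. With DESeq2's size factors in edgeR, 1 member rose in parental cells, and 4 were below and 1 above 0 for the difference. Members of the list numbered 3 alone gave 10 falls and 2 rises in DTMYC cells (median −0.089), 1 rise in parental cells, 3 below and 0 above 0 for the difference, a promoter-proximal median of −0.098, openness of 88.5% and 88.2%, and CACGTG in 14.8%. A distance limit of 500 bases left 0 parental rises.

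The replicate numbers did not pair the RNA-seq libraries, and in PRO-seq gene bodies same-numbered libraries deviated together (r = 0.64) in only 2 pairs that share a number and no stated source. The replicate block gave 0 parental rises and 7 below 0 for the difference. In gene bodies it gave 600 falls and 221 rises (29.3% and 10.8% of members), beside 15.9% and 16.6% of all genes. With the block 160 fell and 18 rose in DTMYC cells. Against unbound genes that passed the count filter the level difference was 1.18. When an ATAC-seq peak had to cover 50% of a region, openness was 85.2% and 84.8%, and with peaks of score 100 or more 78.8% and 81.7%. CACGTG was in 32.0% of whole regions and in 10.3% within 50 bases. The counts by score bin, E-box and gene list without the third parental DMSO library were chosen after seeing the data. Over the alternatives, 45 called named genes kept their call in 604 cases, lost it in 161 and changed sign in 0. The causes of these shifts were not tested. The depth of the peak lists is unknown.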

Other observations

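The single-library regions were sparse on the X chromosome. It held 13 of the 1873 regions, or 0.694%, while 4.12% of the start sites in the table lie there.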
